A study of Mus musculus with 7 samples.

Results

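The Rab GTPases of the mouse were examined in marrow cells isolated through CD41, a surface glycoprotein of megakaryocytes (MKs), from mice infused with saline or with serotonin (5-HT). Members were all genes whose single listed symbol is Rab followed by a number and, in some, a letter. The array carried 59 such genes among 19057 named genes, covered by 112 of 45281 probes, and each gene was read from its brightest probe. Of the 59 genes, 27 (45.8%) lay above the limit on mean signal on which genes were chosen for testing, against 28.4% of all named genes. The other 32 Rab genes were not tested and are described by their signals alone.

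Male C57BL/6J mice of 10 to 12 weeks received saline or 5-HT through osmotic pumps for 24 h. In the treated group the pump solution was 25.8 mM 5-HT, and the stated rate was 1.66 µg/kg/h. Both groups were of the same strain, sex and age range, and the pump was present in both. Each sample was the CD41-bead fraction of femoral marrow pooled from 3 to 4 mice and was read on 1 array of an Illumina mouse BeadChip. There were 3 saline and 4 5-HT arrays, after the authors set 1 outlying saline sample aside. The values are log2 signals that the authors shifted to one median per array, 6.68, and a log2 difference of 1 is a doubling of signal.

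Rab proteins are small GTPases that mark the membranes of the secretory and endocytic pathways. In the GTP-bound state a Rab sits on its membrane by a prenyl anchor and recruits effectors, such as tethers, motors and docking factors. Exchange factors load the GTP, GTPase-activating proteins end the active state, and GDP dissociation inhibitor and the prenylation machinery return the protein to and from the cytosol. In MKs and platelets Rabs are known for the making and release of granules: Rab27a and Rab27b act in dense granule number and release, and Rab32 and Rab38 in delivering cargo to lysosome-related organelles.

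The isolated fraction held transcripts of more than MKs. The mean log2 signal of 12 MK markers was 10.91, 8.90 and 8.74 in saline replicates 1 to 3 and 10.95, 8.78, 9.91 and 10.96 in 5-HT replicates 1 to 4. Itga2b, which encodes CD41 itself, ran from 8.86 to 12.29, while Itgb3 and P2ry12 lay below the limit. Thus saline replicate 1 and 5-HT replicates 1 and 4 were high for MK transcripts, and each group also held low arrays. The mean of 12 neutrophil markers was 13.73 to 13.85 in saline and 14.08 to 14.48 in 5-HT, with no overlap between the groups, and the mean of 5 eosinophil markers was 7.15 to 7.49 against 7.60 to 9.35, also with no overlap. Means of the other lists overlapped: 6.92 to 7.53 against 7.10 to 8.92 for 7 basophil and mast cell markers, 8.54 to 9.32 against 7.88 to 9.21 for 5 erythroid markers and 7.47 to 7.70 against 7.65 to 8.03 for 4 B lineage markers. All these means stand under the authors' shift and were not computed under another scaling of the arrays. The part of these cell types in the Rab values below was not tested, and in a bulk sample fewer cells of a type and less RNA per cell cannot be told apart.

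Promoters are shown for the 3 members that passed the unadjusted thresholds of the methods, Rab3d, Rab5c and Rab35, so that the sequence stands beside the values that follow. Each window holds 250 bases before and 50 after the RefSeq start of the gene (GRCm38.p6, written along the gene's strand), at chr9:21918134-21918433 (minus strand) for Rab3d, chr11:100738166-100738465 (minus strand) for Rab5c and chr5:115631737-115632036 (plus strand) for Rab35. Capitals mark GGGCGG, the core of the GC box that SP1 binds, or its reverse complement.
Rab3d: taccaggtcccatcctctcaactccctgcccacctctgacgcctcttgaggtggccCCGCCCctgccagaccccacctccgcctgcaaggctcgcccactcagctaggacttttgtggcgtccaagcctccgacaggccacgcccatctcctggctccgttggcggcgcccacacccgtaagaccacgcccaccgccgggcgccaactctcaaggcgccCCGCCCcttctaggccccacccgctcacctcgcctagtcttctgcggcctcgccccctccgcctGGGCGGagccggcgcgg
Rab5c: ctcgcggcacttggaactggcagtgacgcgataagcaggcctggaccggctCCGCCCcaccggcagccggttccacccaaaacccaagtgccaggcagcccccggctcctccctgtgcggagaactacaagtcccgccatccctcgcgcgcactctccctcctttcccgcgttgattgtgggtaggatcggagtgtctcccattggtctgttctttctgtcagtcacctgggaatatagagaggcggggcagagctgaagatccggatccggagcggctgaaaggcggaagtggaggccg
Rab35: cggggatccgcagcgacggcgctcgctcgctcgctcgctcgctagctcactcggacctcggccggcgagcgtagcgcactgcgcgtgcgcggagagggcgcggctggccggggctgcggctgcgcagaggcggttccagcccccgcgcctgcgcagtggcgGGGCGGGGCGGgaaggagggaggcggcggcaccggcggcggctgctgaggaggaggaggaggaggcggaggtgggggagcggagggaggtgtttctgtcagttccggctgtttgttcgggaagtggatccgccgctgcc

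The windows hold 3, 1 and 2 GC boxes in the order Rab3d, Rab5c and Rab35, counted on both strands with overlaps allowed. Their GC content was 71.0%, 63.3% and 75.3%, with 26, 23 and 43 CpG dinucleotides. Of the 59 Rab genes, 48 matched a promoter entry (60 windows, 23 of the 27 tested genes). The median GC content of the Rab windows was 61.2% against 52.7% over all 32851 promoters, and the median CpG count was 19.5 against 7. GGGCGG occurred in 41 of 60 Rab windows and in 35.66% of all promoters. The core promoter box TATAAA occurred in 4 of 60 windows against 13.62%, and the E-box CACGTG, which TFEB reads, in 6 of 60 against 7.15%. The site AGATAA of GATA factors occurred in 2 of 60 against 11.18%, and the core ETS site CCGGAAGT in 2 of 60 against 3.887%. Each motif was searched on both strands. A match of letters is a description of the window and not a measured site.

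The tested Rabs covered a wide range of probe signal. The brightest probes belonged to Rab8a, a Rab of exocytic and ciliary traffic, Rab11b, a Rab of recycling endosomes, and Rab32. Rab8a had log2 signals of 11.66, 11.17 and 11.47 in saline replicates 1 to 3 and 12.54, 11.62, 12.48 and 12.14 in 5-HT replicates 1 to 4. Rab11b had 11.80, 10.85 and 11.30 in saline and 12.37, 11.33, 12.42 and 12.25 in 5-HT. In both genes the groups overlapped by the position of saline replicate 1 against 5-HT replicate 2. Different probes bind with different strength, so this order is one of probe signal and not of transcript number. Nearest the limit of 7.51 were Rab18 (7.53) and Rab22a (7.64) inside it and Rab33b (7.49) and Rab12 (7.42) outside it. Of the tested members, Rab18 alone had a saline mean under the limit (7.45) and a 5-HT mean above it (7.58); the untested Rab33b and Rab1b had such means too.

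**Figure D1:**
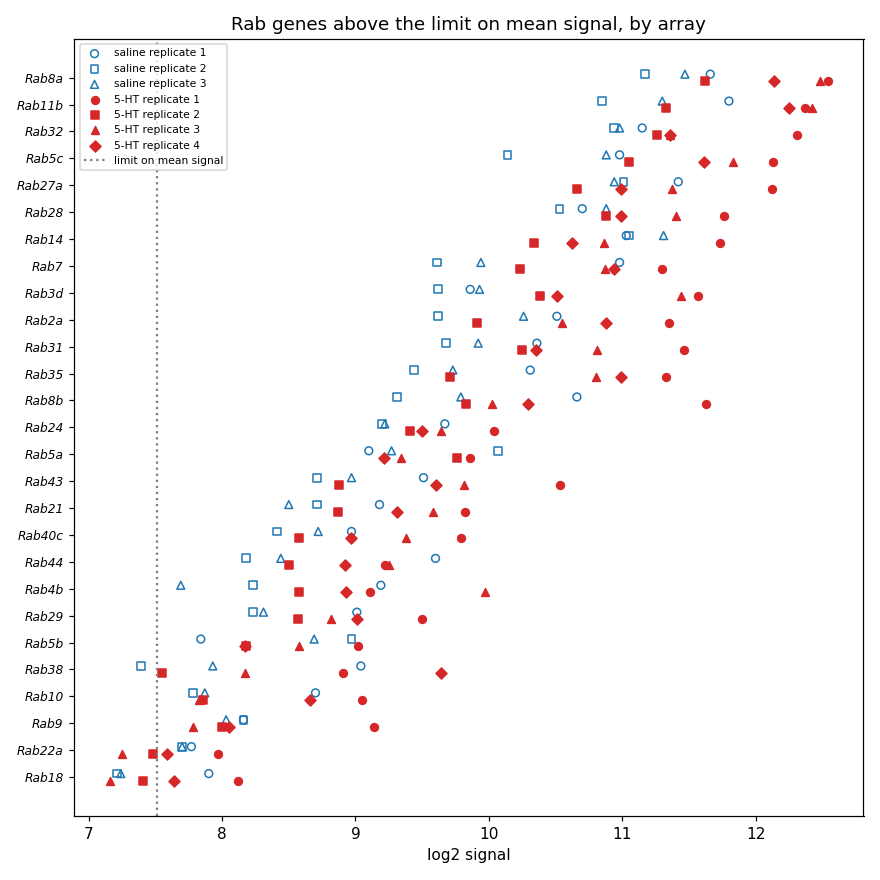
Log2 signal of the 27 tested Rab genes (rows, ordered by mean) in each of the 3 saline arrays (open blue) and 4 5-HT arrays (filled red), with the limit on mean signal, 7.51, as a dotted line. 5-HT replicate 1 was the highest array for 22 of the 27 genes and saline replicate 2 the lowest for 18.

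No Rab gene differed between the groups at an adjusted p under 0.05 in limma with Benjamini-Hochberg adjustment over all genes tested. The adjusted p of the 27 tested genes ran from 0.562 to 0.984, and no tested gene of any kind passed (0%). At the thresholds of the study's methods, a change of more than 1.5-fold at an unadjusted p below 0.05, 3 of 27 Rabs were higher after 5-HT (11.1%: Rab3d, Rab5c and Rab35) beside 5.74% of all tested genes, and 0 were lower beside 0.0185%. Every 5-HT array lay above every saline array in 3 Rabs (11.1%: Rab3d, Rab5c and Rab32) beside 6.31% of all tested genes, and the opposite held for 0 Rabs beside 0.13%. Without the adjustment, 3 Rabs and 311 genes had a p under 0.05. The numbers of Rabs are small, and 1 gene more or fewer moves these shares widely. These counts come from the fit used here, which had 310 genes higher and 1 lower. At the same thresholds the paper reports more genes in each direction and names Rab8a among the raised transcripts. Rab8a was not past them here (limma unadjusted p = 0.0539).

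The tested genes as a whole were shifted upward. The tested Rabs had a median log2 fold change of 0.52 beside 0.42 for every gene tested, of which 91.4% lay above 0. Of the 27 Rabs, 24 lay above 0 and 17 lay above the median of all tested genes. The standard error of a single Rab's log2 fold change was 0.36 to 0.47.

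**Figure D2:**
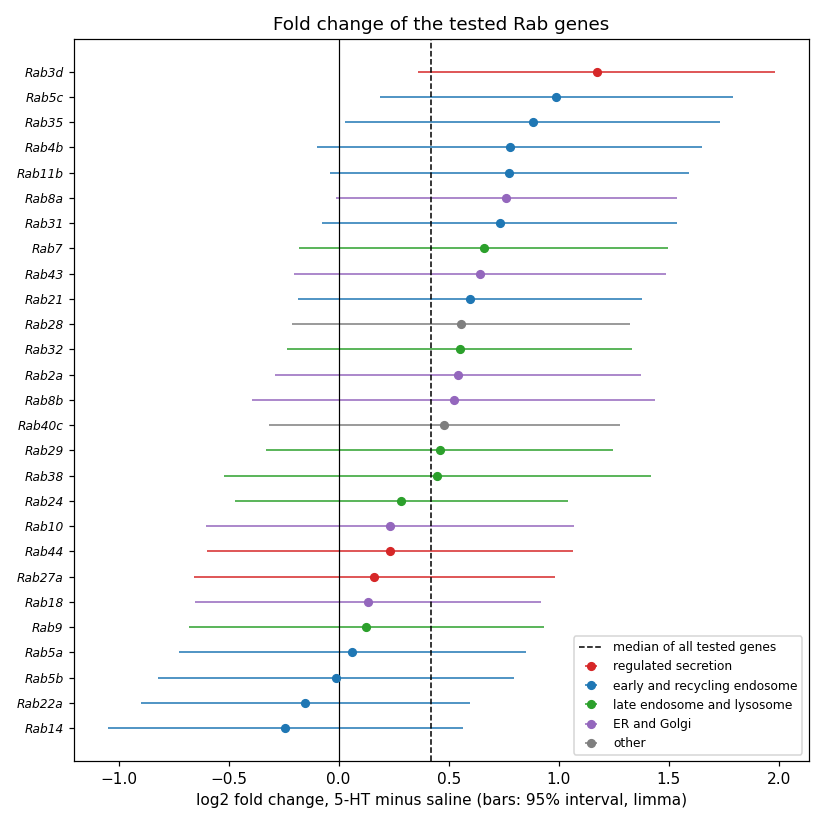
Log2 fold change (5-HT minus saline) of the 27 tested Rab genes with the 95% interval of limma, coloured by the role of the Rab; the dashed line is the median of all tested genes, 0.42. The intervals of Rab3d, Rab5c and Rab35 lie above 0, and the interval of Rab3d begins at 0.36, below the dashed line.

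Among the 9 Rabs of regulated secretion, which dock and release granules, 3 were tested and 1, Rab3d, passed the unadjusted thresholds. Rab3d, which sits on the secretory granules of exocrine and mast cells, had log2 signals of 9.86, 9.62 and 9.93 in saline and 11.57, 10.38, 11.44 and 10.51 in 5-HT. All 4 5-HT arrays lay above all 3 saline arrays, and 5-HT replicates 1 and 3 were higher than replicates 2 and 4. The means were 9.80 ± 0.16 (SD, n = 3) and 10.98 ± 0.62 (SD, n = 4), and the log2 fold change was 1.17 (SE 0.39, 95% interval 0.36 to 1.98, a 2.25-fold higher signal; limma adjusted p = 0.562, unadjusted p = 0.00652). It was the largest change among the tested Rabs.

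Rab27a, which docks lytic granules, melanosomes and platelet dense granules, was not past either threshold. Its log2 signals were 11.42, 11.01 and 10.94 in saline and 12.12, 10.66, 11.37 and 10.99 in 5-HT, and the saline arrays lay within the range of the 5-HT arrays. The log2 fold change was 0.16 (SE 0.40, limma adjusted p = 0.802). Rab44, a large Rab of mast cells and other marrow cells, had 9.60, 8.18 and 8.44 in saline and 9.22, 8.50, 9.25 and 8.92 in 5-HT, a log2 fold change of 0.23 (SE 0.40).

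Rab27b, the dominant Rab27 form of platelets in mouse studies, lay below the limit and was not tested. Its log2 signals were 7.74, 6.75 and 6.70 in saline and 7.54, 6.71, 6.94 and 7.64 in 5-HT. The 3 high arrays were saline replicate 1 and 5-HT replicates 1 and 4, the arrays highest for the MK markers and for the tested-gene median. The group means were 7.06 ± 0.59 (SD, n = 3) and 7.21 ± 0.45 (SD, n = 4). Rab37, a Rab of secretory granules, had 7.05, 6.82 and 6.64 against 7.11, 6.87, 7.23 and 7.46, also below the limit. Of the neuronal Rab3 forms of synaptic vesicles, Rab3a had a mean of 6.92, Rab3c of 6.61 and Rab3b of 6.6, and Rab26 had 6.63.

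Early and recycling endosomes were the best represented site, with 10 of 15 genes tested. Their median log2 fold change was 0.66 (range -0.24 to 0.99), 7 of the 10 were above 0, and 2, Rab5c and Rab35, passed the unadjusted thresholds. Rab5c, which drives fusion of early endosomes with Rab5a and Rab5b, had log2 signals of 10.98, 10.14 and 10.88 in saline and 12.13, 11.05, 11.83 and 11.61 in 5-HT. The groups did not overlap, although saline replicate 1 and 5-HT replicate 2 lay close to each other. The means were 10.67 ± 0.46 (SD, n = 3) and 11.66 ± 0.46 (SD, n = 4), and the log2 fold change was 0.99 (SE 0.39, 95% interval 0.19 to 1.79, a 1.98-fold higher signal; limma adjusted p = 0.562, unadjusted p = 0.0178).

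Rab35, which returns cargo from endosomes to the plasma membrane, had 10.31, 9.44 and 9.73 in saline and 11.33, 9.71, 10.80 and 10.99 in 5-HT. Here 5-HT replicate 2 lay below saline replicates 1 and 3, and the other 5-HT arrays lay above all saline arrays. The log2 fold change was 0.88 (SE 0.41, 95% interval 0.03 to 1.73; limma adjusted p = 0.562, unadjusted p = 0.0437).

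The other 2 Rab5 forms had log2 fold changes near 0. Rab5a had 9.10, 10.07 and 9.27 in saline and 9.86, 9.76, 9.34 and 9.21 in 5-HT, a log2 fold change of 0.06 (SE 0.38). Rab5b had 7.84, 8.97 and 8.69 in saline and 9.02, 8.18, 8.58 and 8.17 in 5-HT, a log2 fold change of -0.01 (SE 0.39). The within-array difference of the Rab5c and Rab5b probes, which can be read only between groups, was 2.17 ± 0.99 (SD, n = 3) in saline and 3.17 ± 0.24 (SD, n = 4) in 5-HT. The difference in log2 fold change was 1.0 between Rab5c and Rab5b (two-sided exact permutation p = 0.0857, adjusted over 4 pairs 0.286) and 0.93 between Rab5c and Rab5a (exact p = 0.143, adjusted 0.286), where the smallest p that 3 against 4 arrays allow is 0.0286. After adjustment over 4 pairs a lone pair could reach no less than 0.114, so the adjusted test could not have passed for one pair. Rab5a and Rab5b differed by 0.08 (exact p = 0.83).

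Rab4b, which recycles cargo quickly from early endosomes, had 9.19, 8.23 and 7.69 in saline and 9.11, 8.58, 9.97 and 8.93 in 5-HT, a log2 fold change of 0.78 (SE 0.42, limma adjusted p = 0.562) with overlapping groups. Its paralog Rab4a, which acts in release of platelet alpha granules, lay below the limit with 7.5, 6.66 and 6.78 against 7.27, 6.68, 6.83 and 7.31. As with Rab27b, saline replicate 1 and 5-HT replicates 1 and 4 were the 3 highest arrays of Rab4a. Rab11b had a log2 fold change of 0.78 (SE 0.39), Rab31, a Rab of trans-Golgi to endosome transport, of 0.73 (SE 0.39), and Rab21, which acts in integrin uptake, of 0.60 (SE 0.38). Rab11a, the other recycling Rab11 form, had a mean of 7.24 and was not tested.

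Under the authors' shift, the 3 Rabs with a log2 fold change below 0 (Rab14, Rab22a and Rab5b) were all endosomal. Rab14, which moves cargo between the Golgi and endosomes, had 11.03, 11.05 and 11.31 in saline and 11.73, 10.34, 10.86 and 10.62 in 5-HT. In Rab14, 5-HT replicate 1 was the highest of all 7 arrays, and 5-HT replicates 2, 3 and 4 were below every saline array. The log2 fold change was -0.24 (SE 0.39, 95% interval -1.05 to 0.56; limma adjusted p = 0.708). Rab22a, a Rab of early endosomes, had 7.77, 7.70 and 7.70 in saline and 7.97, 7.48, 7.25 and 7.59 in 5-HT, near the limit, with a log2 fold change of -0.15 (SE 0.36).

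Late endosomes, lysosomes and lysosome-related organelles had 6 of 11 genes tested, with a median log2 fold change of 0.45 (range 0.13 to 0.66) and none past the unadjusted thresholds. Rab32 had 11.15, 10.94 and 10.98 in saline and 12.31, 11.26, 11.36 and 11.36 in 5-HT. Under the authors' shift all 5-HT arrays lay above all saline arrays, and 5-HT replicate 1 stood well above the other 5-HT arrays. The log2 fold change was 0.55 (SE 0.38, limma adjusted p = 0.562). Rab38, which shares the organelle-cargo role of Rab32, had 9.04, 7.39 and 7.93 in saline and 8.91, 7.55, 8.17 and 9.64 in 5-HT, so that the spread within each group, 0.84 and 0.91 (SD), exceeded the log2 fold change of 0.45 (SE 0.47, limma adjusted p = 0.609).

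Rab7, the main Rab of late endosomes, had a log2 fold change of 0.66 (SE 0.41), and its saline replicate 1 (10.98) lay above 3 of the 4 5-HT arrays. Rab29, the Rab that recruits Lrrk2, had 0.46 (SE 0.38), Rab24, a Rab linked to autophagy, 0.28 (SE 0.37), and Rab9, which returns receptors from late endosomes to the Golgi, 0.13 (SE 0.39). Rab20, a phagosomal Rab, had a mean of 6.91, and Rab9b, the lowest of the 59, of 6.58.

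Among Rabs of the endoplasmic reticulum, the Golgi and constitutive secretion, 6 of 19 were tested and none passed the unadjusted thresholds. Their median log2 fold change was 0.53 (range 0.13 to 0.76), led by Rab8a at 0.76 (SE 0.38, 95% interval -0.01 to 1.54; limma adjusted p = 0.562, unadjusted p = 0.0539). Rab43, a Golgi Rab, had 0.64 (SE 0.41), Rab2a, which acts between the endoplasmic reticulum and Golgi, 0.54 (SE 0.40), and Rab8b, the paralog of Rab8a, 0.52 (SE 0.44). Rab8a and Rab8b differed by 0.24 in log2 fold change (two-sided exact permutation p = 0.543). Rab10, which acts in Golgi to surface transport, had 0.23 (SE 0.41) and Rab18, a Rab of lipid droplets, 0.13 (SE 0.38). Rabs that every cell uses for the first steps of secretion gave dim probes here: Rab1a had a mean of 7.19, Rab1b of 7.33 and Rab6a of 7.35. Rab1b had the largest difference of the untested members, 0.57, from 7.01 ± 0.09 (SD, n = 3) to 7.58 ± 0.37 (SD, n = 4). That value rests on its brightest probe. The second Rab1b probe, with a mean of 7.14, had a difference of 0.07, and the third, with a mean of 6.75, had 0.10. The 2 tested members outside these sites were Rab28, a ciliary Rab, at 0.55 (SE 0.37) and Rab40c, which joins a ubiquitin ligase, at 0.48 (SE 0.39).

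The 32 untested Rabs had mean log2 signals of 6.58 to 7.49 (median 6.83), and 21 were under 7, close to the array median of 6.68. Their differences ran from -0.33 to 0.57, and in none did the groups separate. A signal near the array median does not show that a transcript is absent.

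The spread between arrays of one group ran across most Rabs at once. The median log2 signal over the 27 tested Rabs was 9.67, 9.31 and 9.27 in saline replicates 1 to 3 and 10.53, 9.71, 9.97 and 9.64 in 5-HT replicates 1 to 4. The median over all tested genes was 9.0, 8.16 and 8.33 in saline and 9.44, 8.28, 8.97 and 9.04 in 5-HT. 5-HT replicate 1 was the highest of the 7 arrays for 22 of 27 Rabs, beside 63.4% of all tested genes, and saline replicate 2 the lowest for 18 of 27, beside 55% of all tested genes. Saline replicate 1 was the highest saline array for 22 of 27 Rabs and 5-HT replicate 2 the lowest 5-HT array for 21 of 27. Without saline replicate 1, 11 Rabs passed the unadjusted thresholds as higher in place of 3 (beside 27.1% of all tested genes), and without 5-HT replicate 2 likewise 11 (beside 31.2%). Without saline replicate 2 only Rab3d passed, with a log2 fold change of 1.08, while Rab5c had 0.725 and Rab35 0.69. Rab35 also missed the thresholds without saline replicate 3 and without 5-HT replicate 1, 3 or 4, with log2 fold changes of 0.67 to 0.85.

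Some Rabs were highest in the arrays that were highest for MK markers. Those arrays also had the highest medians over all tested genes, 9.0 in saline replicate 1 and 9.44 and 9.04 in 5-HT replicates 1 and 4. The next median was 8.97, in 5-HT replicate 3. A link to MK content and the signal order of the arrays thus cannot be told apart. For 14 of 59 Rabs (23.7%) the 3 highest arrays were those highest for the MK markers, saline replicate 1 and 5-HT replicates 1 and 4, beside 15.1% of all named genes. Of the Rabs 45.8% were tested against 28.4% of all named genes. Neither this background share nor those that follow were matched to the Rabs for signal. Among tested genes the share was 6 of 27 (22.2%; Rab7, Rab8b, Rab10, Rab18, Rab29 and Rab38) beside 30.0% of all tested genes. Among the untested it was 8 of 32 (25%; Rab4a, Rab6a, Rab6b, Rab11a, Rab13, Rab27b, Rab33b and Rab36) beside 9.23% of all untested genes. Rab3d, Rab5c and Rab35 were not among them. The untested Rab6b ran only from 6.56 to 6.83 over the arrays, close to the array median of 6.68. Under the authors' shift, the neutrophil and eosinophil marker means were higher in every 5-HT array than in every saline array. So were Rab3d, Rab5c and Rab32. Under that shift 91.4% of all tested genes had a log2 fold change above 0. The markers were not read under another scaling. Of single markers, all 5-HT arrays lay above all saline arrays in 4 of 12 neutrophil genes (Ltf, Ngp, Lcn2 and Chil1) and 2 of 5 eosinophil genes (Prg2 and Prg3). The share was 6.31% of all tested genes and 3.43% of all named genes. Camp, S100a8 and S100a9 were not higher in mean (log2 differences of -0.11, -0.00167 and -0.0075), and Il5ra and Siglecf lay below the limit with differences of 0.015 and -0.00167. The groups of Epx, also below the limit, overlapped, with 7.07, 6.64 and 6.7 in saline and 9.64, 6.81, 6.96 and 8.09 in 5-HT. The part of neutrophils and eosinophils in the values of Rab3d, Rab5c and Rab32 was not tested.

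**Figure D3:**
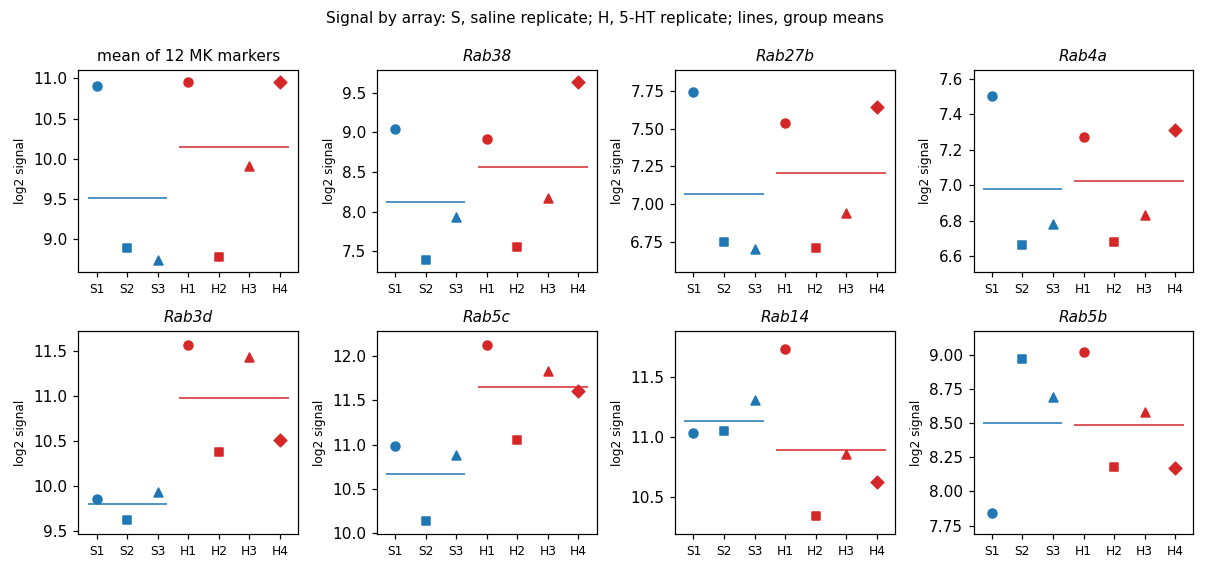
Log2 signal by array (S, saline replicate; H, 5-HT replicate; lines, group means) of the mean of 12 MK markers and of 7 Rab genes; each panel has its own axis, which does not start at 0. Rab38, Rab27b and Rab4a are highest in S1, H1 and H4, as are the MK marker mean and, not drawn, the tested-gene median. All 5-HT arrays of Rab3d and Rab5c lie above all saline arrays.

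The scaling of the arrays set the direction of part of the family. Under quantile normalization, cyclic loess or a shift to the median of the tested genes, the genes tested had a median log2 fold change of 0.08, 0.03 and -0.02 in place of 0.42, and the tested Rabs had 0.0601, 0.0422 and 0.0867 in place of 0.52. At the unadjusted thresholds, 310 genes were higher and 1 lower under the authors' shift, beside 65 and 92 under quantile normalization, 41 and 103 under cyclic loess and 53 and 122 under the shift to the median of the tested genes. Rab3d stayed past the unadjusted thresholds under these 3 scalings and under every other alternative tried (16 of 16), whereas its groups overlapped under the 3 scalings. Rab5c was past them in 12 of 16 and lost them under the 3 scalings and without saline replicate 2, and its groups stayed apart in 16 of 16. Rab35 was past them in 7 of 16. The groups of Rab32, apart under the authors' shift, overlapped under the 3 scalings, where its log2 fold change was 0.08, 0.06 and 0.11. Rab8a, not past them in the fit reported, was past them in 8 of 16. Rab14 passed them as lower under the 3 scalings, with log2 fold changes of -0.70, -0.74 and -0.68 (limma unadjusted p = 0.0126, 0.00884 and 0.0322). Rab27a, Rab24, Rab5a, Rab44, Rab10, Rab9 and Rab18 turned from above to below 0 under all 3.

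**Figure D4:**
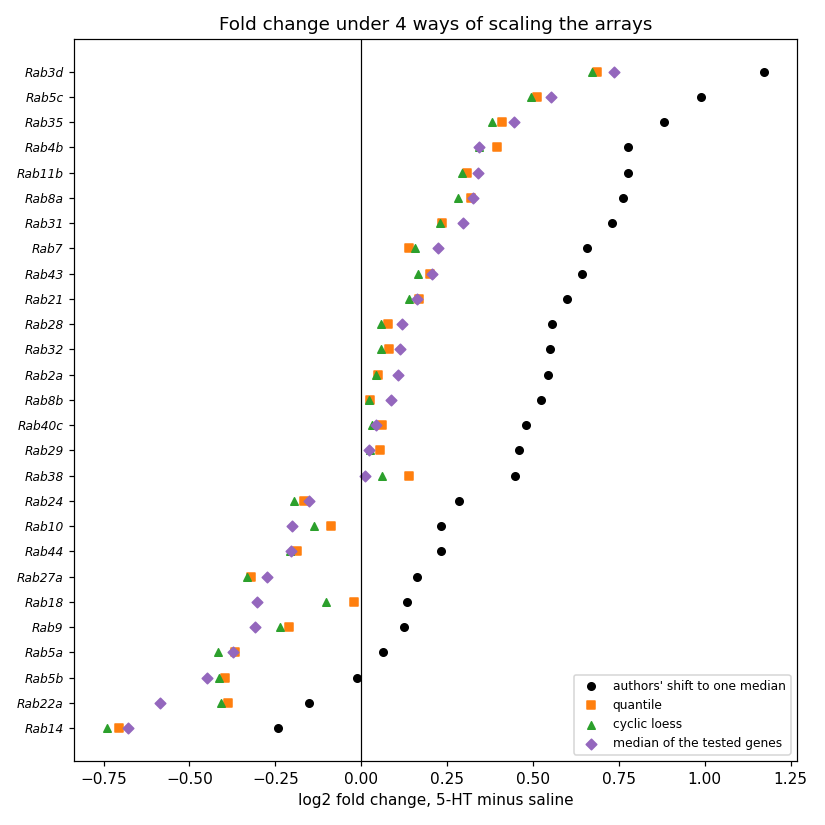
Log2 fold change (5-HT minus saline) of the 27 tested Rab genes under the authors' shift to one median (black) and under 3 other scalings. Under each of these 3 all genes lie lower than under the authors' shift; Rab3d stays above 0, and Rab14 lies at -0.70, -0.74 and -0.68.

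Some members had more than 1 bright probe. Of the 27 tested Rabs, 5 had at least 2 probes over the limit, 11 probes in all, and every one of the 11 had a log2 fold change above 0, as had 91.4% of all tested genes. The second probe of Rab8a had 9.58, 8.88 and 9.14 in saline and 10.46, 9.74, 10.55 and 10.29 in 5-HT. Its log2 fold change was 1.06 beside 0.76 for the first, and on the second probe the groups did not overlap. In a limma fit on every probe with 1 symbol, the unadjusted p was 0.00411 for the second probe and 0.0193 for the first. The adjusted p in that fit was 0.835 for each. The probes of Rab43 gave 0.64 and 0.79, those of Rab8b 0.52 and 0.60, those of Rab28 0.55 and 0.40, and those of Rab24 0.28, 0.52 and 0.20. Rab3d, Rab5c, Rab35 and Rab32 had 1 probe each on the array, so their values rest on that probe.

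Genes that act on Rabs were counted in 4 lists, none with a gene at an adjusted p under 0.05 or lower at the unadjusted thresholds. The counts of higher genes below stand beside 5.74% of all tested genes. All values of these lists stand under the authors' shift and were not computed under another scaling of the arrays. The share of all tested genes that passed as higher was 1.2% under quantile normalization and 0.759% under cyclic loess. It was 0.981% under the shift to the median of the tested genes. Of 7 genes of prenylation and membrane cycling, 4 were tested (median log2 fold change 0.44) and 1, Rabac1, a Golgi protein that binds prenylated Rabs, passed as higher. Rabac1 had 9.96, 9.72 and 9.69 in saline and 10.76, 10.32, 10.70 and 10.62 in 5-HT, with no overlap and a log2 fold change of 0.81 (SE 0.36, limma unadjusted p = 0.0335). Rabif, Rabggta and Rabggtb had 0.49, 0.39 and -0.03, the last 2 being the alpha and beta subunits of the transferase that prenylates Rabs. Gdi2, Chm and Chml, which carry Rabs through the cytosol or to that transferase, were not tested.

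Of 35 exchange factors and their subunits, 21 were tested, with a median log2 fold change of 0.55, and 2 passed as higher. Both are subunits of the TRAPP complexes, which activate Rab1 and tether vesicles: Trappc6a at 0.92 (SE 0.36, limma unadjusted p = 0.0183) and Trappc1 at 0.81 (SE 0.38, unadjusted p = 0.0452). Trappc6a and Trappc2l (0.58) had groups that did not overlap, and Trappc3 (-0.08) and Trappc6b (0.08) had the smallest changes. Of 33 GTPase-activating proteins 16 were tested, with a median of 0.45 and none past the thresholds. They ran from Tbc1d20, which acts on Rab1, at -0.31 to Tbc1d2, which acts on Rab7, at 0.78. Next to these ends lay Rabgap1 at 0.165 and Tbc1d13 at 0.624.

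Of 48 effectors 19 were tested, with a median of 0.43, and 1 passed as higher. It was Unc13d, the Rab27 effector that primes granules for release, with 8.86, 8.03 and 8.27 in saline and 9.77, 8.41, 9.77 and 9.40 in 5-HT, a log2 fold change of 0.95 (SE 0.41, limma unadjusted p = 0.0277) and an overlap by 5-HT replicate 2. Gorasp2, a Golgi stacking protein, had 0.78, Lrrk2, a kinase that phosphorylates several Rabs, 0.02, and Golga2, a Golgi tether that binds Rab1, -0.51. Of the tested effectors only Rilpl2 (0.48) had groups that did not overlap, beside 6.31% of all tested genes with all 5-HT arrays above. The medians of the 4 lists, 0.44, 0.55, 0.45 and 0.43, lay beside 0.42 for all tested genes.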

How the data were processed

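Log2 signals of 7 arrays of mouse BeadChips were used as deposited; the authors had log transformed them and given every array one median, and whether background was subtracted is not stated. The paper names 2 chip types; the table has 45281 probes. A second table with 14 columns of signals and detection p-values that match no sample was not used. Of the probes, 34885 had 1 symbol, 18 several and 10378 none listed, and those with 1 were kept. The genes with the highest mean, as many as the paper calls expressed (last mean 7.51), were tested with lmFit and eBayes of limma 3.58.1 (R 4.3.3), group as the only term, with Benjamini-Hochberg adjustment over all of them and 95% intervals. The fit has 5 residual and 18.7 prior degrees of freedom, and the number of arrays limits the precision. The procedure was tested on simulated data. Paralog pairs were tested by exact permutation (two-sided, 35 splits).

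The members and gene lists were chosen with earlier results of these data known. Values in every array are given for members past the unadjusted thresholds, the 3 smallest fold changes and the 3 brightest. They are also given for Rabs of platelet granules, a choice made here, and for the Rabs that the study's text names. Regulators are named where they passed those thresholds or had the 2 largest or smallest changes. Other genes were picked with their values in view. Alternatives were quantile and cyclic loess normalization, a shift to the median of the tested genes, no limit on signal, the mean of a gene's probes, trend and robust eBayes, array weights, a replicate block, and leaving out arrays. Paralog pairs were added after the data were seen. Samples are pools of mice, and p-values measure the spread between these pools.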

Additional observations from a re-analysis of the deposited data

Results flagged for a closer look

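Among the 27 tested Rabs, 2 had 1 5-HT array far from the other 3. Rab11b, a Rab of recycling endosomes, had its lowest 5-HT value, 11.33, in 5-HT replicate 2, and that gap was 0.844 of the range of the group. Rab32, a Rab of lysosome-related organelles, had its highest, 12.31, in 5-HT replicate 1, a gap of 0.905 of the range. Chance alone flags about 1 in 20 such groups.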

How the results depend on the processing

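The median log2 fold change of the tested Rabs, 0.52, was 0.0601 under quantile normalization, 0.0422 under cyclic loess and 0.0867 after the shift to the median of the tested genes; without the limit on signal it was 0.13. Under these 3 scalings 1 Rab passed the unadjusted thresholds as higher (Rab3d) and 1 as lower (Rab14). Fold changes that turned below 0, in the order quantile, cyclic loess and tested-gene median, were -0.32, -0.33 and -0.27 for Rab27a, -0.17, -0.20 and -0.15 for Rab24, -0.37, -0.42 and -0.37 for Rab5a, -0.19, -0.21 and -0.20 for Rab44, -0.0871, -0.14 and -0.20 for Rab10, -0.21, -0.24 and -0.31 for Rab9, and -0.0201, -0.10 and -0.30 for Rab18. The difference between Rab5a and Rab5b was -0.00254 under cyclic loess.

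The count of Rabs higher at the unadjusted thresholds, 3, was 5 with the mean of a gene's probes (beside 6.9% of all tested genes), 5 with trend and robust eBayes (6.79%), 15 with array weights (59.8%) and 12 with the replicate block (22.7%), beside 5.74% in the fit reported. At adjusted p under 0.05 there were 15 Rabs with array weights (beside 60.3% of all tested genes; the weights did not fully converge) and 1, Rab3d, with the replicate block (0.833%). Same-numbered arrays of the 2 groups deviated with r = 0.145, 0.684 and -0.247, so the numbers were not taken as pairs. Array weights put Rab5a at -0.39 and Rab9 at -0.0350, and the replicate block put Rab5b at 0.0933. Without saline replicate 1 and 5-HT replicate 2 together, 17 passed (beside 64.3% of all tested genes), 16 at adjusted p under 0.05 (56.6%), 19 had all 5-HT arrays above (74.9%), Rab5a was -0.20 and the difference between Rab8a and Rab8b was -0.03. The cause was not tested.

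Leaving out each array in turn gave 1 to 11 Rabs higher (beside 0.888% to 31.2% of all tested genes), 3 to 13 with all 5-HT arrays above (6.55% to 35.8%) and 0 to 2 with all below (0.13% to 1.92%; 2 without 5-HT replicate 1). The log2 fold changes that crossed 0 ran from -0.117 to 0.37 for Rab27a, -0.128 to 0.358 for Rab5a, -0.0475 to 0.663 for Rab44, -0.343 to 0.223 for Rab5b, -0.173 to 0.28 for Rab9 and -0.0467 to 0.358 for Rab18. The difference between Rab5a and Rab5b ran from -0.125 to 0.215 and that between Rab8a and Rab8b from -0.0175 to 0.52.

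The number of arrays, 3 and 4, limits what can be called, and depth is not defined for arrays.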
